A study of Mus musculus with 9 samples.

Results

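Methylated DNA immunoprecipitation sequencing (meDIP-seq) was used to compare the hypothalamus of male C57/Bl6 pups after modified maternal separation (MMS) with that of control pups. MMS pups were taken from the dam for a short period on each day from P4 to P6 and turned onto their backs, control pups came from the same litters, and tissue was collected at P6. Each group was sequenced as 3 pools of animals, so the differences between single animals were not measured. The genes described here are the glutamate receptors and the scaffolds that hold them at the synapse. They were chosen by symbol among the protein-coding genes of GENCODE: the AMPA (Gria), kainate (Grik), delta (Grid), NMDA (Grin1, Grin2a to Grin2d, Grin3a, Grin3b) and metabotropic (Grm) receptors and the Dlg, Dlgap, Shank and Homer scaffolds. This gave 42 of 21938 genes. A differentially methylated region (DMR) was counted for a gene when it overlapped the gene body or the 1000 bp upstream of it, and 23 of the 42 genes held 70 of the 12949 DMRs in the deposited list.

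Glutamate is the main excitatory transmitter of the hypothalamus. Ionotropic receptors are cation channels that open when glutamate binds, whereas metabotropic receptors signal through G proteins. Below the membrane, DLG proteins bind receptor tails, DLGAP proteins link DLG to SHANK proteins, and SHANK and HOMER proteins form the deeper layer of the postsynaptic density. In meDIP-seq an antibody against methylated cytosine enriches DNA fragments, so the reads over a region depend on its methylation and on its number of CpG sites.

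Values below are the authors' means of normalised reads per DMR on a log2 scale, 1 for control and 1 for MMS. Each is a mean over 3 pools. The columns used here hold no value per pool, so no error or test was computed for any single value, and whether a difference exceeds the spread between pools rests on the authors' own threshold for the list. Every DMR is in the list because it passed that threshold, and the presence of a difference is therefore not a finding about these genes. The lowest control mean in the list was -0.17 (0.889 normalised reads) and the lowest MMS mean was -0.24 (0.847 normalised reads). A group mean within 0.5 of its lowest value on the log2 scale is called at its lowest value, and the size of a difference from it depends on where that value was set. In bulk tissue, a change of methylation within cells and a change in the proportions of cell types cannot be told apart.

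Of the 42 genes, 23 (54.8%) held a DMR, against 19.3% of all protein-coding genes. A DMR with a higher mean in MMS was present in 18 (42.9%, against 13.6% of all genes), and 15 (35.7%, against 9.13%) held a DMR with a higher mean in control. Both directions occurred within 10 genes (23.8%, against 3.47%). In 8 genes all DMRs were higher in MMS, and in 5 all were higher in control. These include the 8 genes with exactly 1 DMR, for which a single direction is given. Of the 15 genes with 2 or more DMRs, 5 had all of them in 1 direction. The matching shares over all genes were not computed. A further 19 genes had no DMR in the list. Counts cover all 42 genes, and 21 of the 23 genes with a DMR are described by name.

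Many of these genes are long, and long genes hold DMRs more often. Among genes over 500 kb, 7 of the 9 glutamate receptor and scaffold genes (77.8%) held a DMR, against 86.5% of all genes of that length. Between 200 and 500 kb the share was 7 of 12 (58.3%, against 72.8%), and between 50 and 200 kb it was 6 of 12 (50%, against 42.8%). Under 50 kb it was 3 of 9 (33.3%, against 10.4%), and the 3 genes were Grin2c, Grin2d and Dlgap5. These counts are small, genes within a class still differ in length, and no difference from the share of all genes was tested. Per length, these genes held 4.87 DMRs per Mb over 14.4 Mb, against 6.25 per Mb over all protein-coding genes.

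**Figure D1:**
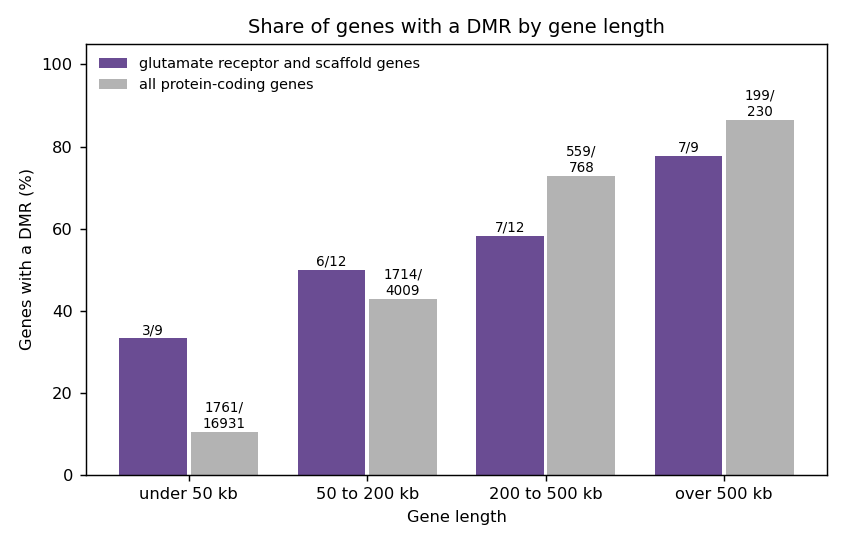
Share of genes with a DMR (vertical axis, percent) in 4 classes of gene length (horizontal axis), for the glutamate receptor and scaffold genes (purple) and all protein-coding genes (grey), with the numbers of genes above the bars. Both shares rise with length, from 33.3% to 77.8% for the receptor and scaffold genes and from 10.4% to 86.5% for all genes.

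The 70 DMRs comprised 44 with a higher mean in MMS and 26 with a higher mean in control. The share higher in MMS was 62.9% (95% Wilson interval 51.1% to 73.2%, counting error only), beside 62.1% of all DMRs in protein-coding genes. With DMRs that had a group at its lowest value left out, it was 42.2%, beside 45.9% of all DMRs in protein-coding genes treated alike. This step removed 25 DMRs higher in MMS and none higher in control, so it could only lower the share. In 25 of the 44 (56.8%), the control mean was at its lowest value, beside 50.3% of all DMRs higher in MMS in protein-coding genes. In none of the 26 was the MMS mean at its lowest value, and among all DMRs higher in control in protein-coding genes this occurred in 3.9%. DMRs higher in MMS had a median width of 426 bp and a median higher-group mean of 4.00 on the log2 scale. Those higher in control were wider, with a median of 672 bp, and had a median control mean of 5.24. The median difference in log2 mean, MMS minus control, was 3.52 in the first set and -1.69 in the second, beside 3.41 and -1.69 for all DMRs in protein-coding genes.

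**Figure D2:**
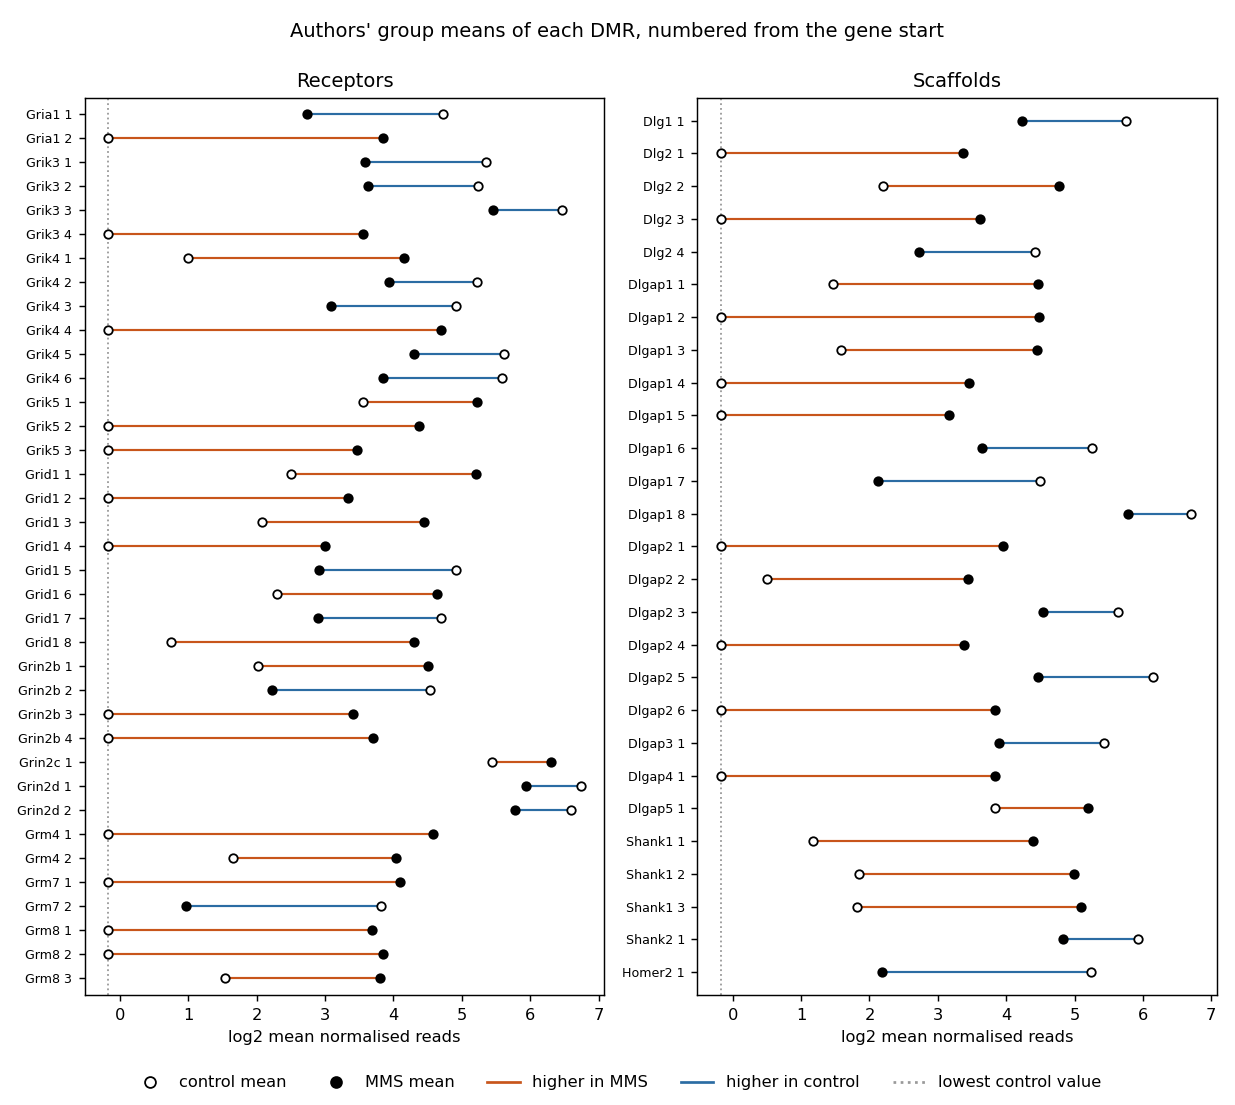
Control mean (open circle) and MMS mean (filled circle) of each of the 64 DMRs described by gene, in log2 mean normalised reads, for receptors (left) and scaffolds (right), numbered from the gene start. Orange lines mark the 40 DMRs higher in MMS, blue lines the 24 higher in control, and the dotted line is the lowest control value of -0.17, on which 22 control means lie.

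AMPA receptors carry most fast excitatory transmission, and a single one of their 4 genes held DMRs. Gria1, which encodes the GluA1 subunit, had 2 DMRs in opposite directions. The DMR at its start (chr11:57011753-57012850) covered exon 1, which holds the start codon, from 366 bp to 1463 bp into the gene. Its log2 means were 4.73 in control and 2.73 in MMS. The other, in intron 2 (chr11:57132422-57132576), had log2 means of -0.17 in control and 3.84 in MMS. No DMR lay within Gria2 (121 kb), Gria3 (278 kb) or Gria4 (378 kb). Of all genes, 42.8% of those from 50 to 200 kb and 72.8% of those from 200 to 500 kb held one. With 4 genes, no difference from these shares was tested. The sequence shown holds the 82 coding bases of the exon 1 DMR, as it is one of 3 DMRs centred in a promoter (1000 bp upstream to 100 bp downstream of a transcript start) and the only one of them over coding sequence. In all sequences below, 100 bases of the GRCm38 (mm10) RefSeq reference are printed on the strand of the gene, with CpG sites in capitals.
Gria1 exon 1, chr11:57012034-57012133, plus strand: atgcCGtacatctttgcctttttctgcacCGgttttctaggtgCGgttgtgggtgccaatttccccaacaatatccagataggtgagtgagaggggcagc

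Kainate receptors modulate transmission on both sides of the synapse, and 3 of their 5 genes held 13 DMRs. The MMS mean was the higher in 6 of them and the control mean in 7, beside 62.1% higher in MMS over all DMRs in protein-coding genes. Per length this was 7.22 DMRs per Mb, against 6.25 over all protein-coding genes. Grik4 and Grik5 encode the subunits that need a partner such as GluK3, the product of Grik3, to form a channel. The products of Grik1, Grik2 and Grik3 can form channels by themselves, and of these Grik1 and Grik2 held no DMR. All 3 DMRs of Grik5 were higher in MMS, whereas Grik3 and Grik4 had mostly DMRs higher in control (3 of 4 and 4 of 6).

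Grik3 is a gene of 223 kb on chromosome 4. From its start, the first DMR lay in intron 1, with log2 means of 5.36 in control and 3.58 in MMS. The next, in intron 2, had log2 means of 5.23 in control and 3.63 in MMS. It was followed after a gap of 346 bp by a DMR over exon 3 (chr4:125631947-125632799), with 6.46 in control and 5.46 in MMS. These neighbours were the closest pair among the 70 DMRs, and they had the same direction. The DMR over exon 3 covered coding bases 293 to 550 of 2757 and had 103 normalised reads per kb in control, where the DMR before it had 30.3. The last, in intron 10 (chr4:125673680-125674190), was at the lowest value of -0.17 in control and at a log2 mean of 3.55 in MMS. The stretch with the most CpG sites in the coding part of exon 3 is shown.
Grik3 exon 3, chr4:125632405-125632504, plus strand: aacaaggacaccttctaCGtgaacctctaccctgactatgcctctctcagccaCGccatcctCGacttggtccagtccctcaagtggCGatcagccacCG

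Grik4 held 6 DMRs over its 426 kb, none of which overlapped an exon. From the start of the gene, the log2 means of the first were 1.00 in control and 4.15 in MMS. Those of the next were 5.22 in control and 3.93 in MMS, and those of the third were 4.91 and 3.08. The third had 5 further alignments in the genome, the longest of 106 bp. The fourth, only 2342 bp further on in the same intron (chr9:42853441-42854127), had the opposite direction, with -0.17 in control and 4.69 in MMS. This difference of 4.86 in log2 mean was the largest of the 70 DMRs. The remaining DMRs in introns 3 and 4 had log2 means of 5.62 in control and 4.30 in MMS, and of 5.58 and 3.85. In Grik5 the DMR of intron 3 had log2 means of 3.55 in control and 5.22 in MMS. Its other DMRs, in introns 12 (chr7:25028964-25029294) and 19, were at the lowest value in control, with log2 means of 4.37 and 3.47 in MMS.

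Delta receptors do not act as ordinary glutamate channels, and instead bind cerebellins and help to hold pre- and postsynaptic membranes together. With 8 DMRs, 6 higher in MMS and 2 in control, Grid1 shared the highest count among these genes with Dlgap1, and 17 genes of the whole annotation held more. All 8 lay between 16.1% and 48.6% of the length of Grid1, and 7 of them in intron 4. The remaining part of this gene of 763 kb held none.

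From the start of Grid1, the DMR of intron 2 had log2 means of 2.50 in control and 5.21 in MMS. For it, 591 further alignments of at least 100 bp were found in the genome, the longest of 151 bp. In intron 4 the next 3 DMRs were also higher in MMS, with log2 means of -0.17, 2.07 and -0.17 in control and 3.33, 4.45 and 3.00 in MMS. The fifth was higher in control (4.92, against 2.91 in MMS). The sixth (2.29 in control, 4.63 in MMS) and the seventh (4.69 in control, 2.90 in MMS) lay 1997 bp apart in opposite directions. Per length, the sixth had 32.0 normalised reads per kb in control and 162 in MMS, and the seventh 49.6 and 14.4. Their widths were 153 bp and 520 bp, and reads that extend past the edges were not corrected for. The last (chr14:35190618-35190871) had log2 means of 0.75 in control and 4.30 in MMS. The third of these DMRs held no CpG site over 316 bp, the only one of the 70 without any. Soft-masked repeat made up 91.9% of the seventh.

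NMDA receptors combine the obligatory GluN1 subunit (Grin1) with GluN2 or GluN3 subunits and admit calcium. DMRs were found in 3 of the 7 genes, Grin2b, Grin2c and Grin2d. None lay in Grin1 (28.0 kb), Grin3a (184 kb), Grin3b (6.48 kb) or Grin2a (428 kb), which also encodes a GluN2 subunit. The share of all genes with a DMR was 10.4% under 50 kb and 42.8% from 50 to 200 kb. It was 72.8% from 200 to 500 kb. Grin2b, the main partner of GluN1 in the young forebrain, had 4 DMRs over 460.3 kb, all within introns. That of intron 2 had log2 means of 2.02 in control and 4.50 in MMS. In intron 3 the direction was opposite, with 4.53 in control and 2.23 in MMS. The last DMRs, of introns 4 and 10 (chr6:135760872-135761129), were at the lowest value in control and had log2 means of 3.41 and 3.70 in MMS.

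Grin2c and Grin2d, both under 50 kb, held DMRs over exons with high means in both groups. The DMR of Grin2c (chr11:115254757-115257005) spanned exons 7 to 9 over 2249 bp, with log2 means of 5.44 in control and 6.31 in MMS. In Grin2d the DMR over exon 1 had log2 means of 6.74 in control and 5.94 in MMS, and that over exons 3 to 5 (chr7:45856940-45859642), of 2703 bp, had 6.60 and 5.77. The differences in log2 mean, of 0.87, -0.80 and -0.83, were the 3 smallest of the 70 DMRs.

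The exon DMRs of Grin2c and Grin2d covered corresponding parts of the paralogous genes. The 532 coding bases under the Grin2c DMR were bases 1114 to 1645 of its coding sequence. They aligned to bases 1192 to 1724 of the Grin2d coding sequence with 72.6% identity over 529 bp. The Grin2d DMR covered bases 1077 to 1572, so the stretches overlap, whereas the direction was opposite: higher in MMS for Grin2c and higher in control for Grin2d. This correspondence was chosen for description after the values had been seen. Neither DMR aligned elsewhere in the genome over at least 100 bp at 95% identity. The same part aligned to Grin2b with 67.7% identity, and no Grin2b DMR lay there. Sequences from both exon DMRs are shown, and that of the Grin2d DMR over exon 1, which had the highest group mean of the ionotropic receptors and lies here outside the exon.
Grin2c exon DMR, chr11:115255666-115255765, minus strand: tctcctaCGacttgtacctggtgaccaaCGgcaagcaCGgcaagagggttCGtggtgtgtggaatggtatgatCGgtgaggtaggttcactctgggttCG
Grin2d exon 3 to 5 DMR, chr7:45857559-45857658, minus strand: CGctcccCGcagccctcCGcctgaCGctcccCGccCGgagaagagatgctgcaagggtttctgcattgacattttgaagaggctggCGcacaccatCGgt
Grin2d exon 1 DMR, chr7:45867144-45867243, minus strand: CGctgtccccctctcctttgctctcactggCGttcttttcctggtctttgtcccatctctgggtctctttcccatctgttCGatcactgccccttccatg

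Metabotropic receptors couple to phospholipase C or inhibit adenylyl cyclase. Grm5, one of those that couple to phospholipase C, held no DMR over its 551 kb. The receptors that inhibit adenylyl cyclase are Grm2, Grm3, Grm4, Grm6, Grm7 and Grm8. DMRs were present in Grm4 (99 kb), Grm7 (922 kb) and Grm8 (860.1 kb), and in none of Grm2 (13.0 kb), Grm3 (239.6 kb) and Grm6 (15.5 kb). Of all genes, 86.5% of those over 500 kb and 10.4% of those under 50 kb held a DMR. Of the 7 DMRs of Grm4, Grm7 and Grm8, 6 were higher in MMS, beside 62.1% of all DMRs in protein-coding genes.

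The first DMR of Grm4 (chr17:27519631-27520250), 1463 bp from the gene start by its centre and upstream of the main transcript, had log2 means of -0.17 in control and 4.58 in MMS. The other, in intron 2, had 1.65 in control and 4.03 in MMS. In Grm8 all 3 DMRs lay in intron 2, within the first 15.0% of a gene of 860.1 kb, and were higher in MMS. The first pair (the second at chr6:28099513-28100876) had log2 means of -0.17 in control and of 3.68 and 3.85 in MMS, and the third had 1.53 in control and 3.80 in MMS. The DMR higher in control was in Grm7. It lay in intron 8, with log2 means of 3.82 in control and 0.96 in MMS, and 4836 further alignments of at least 100 bp were found for it in the genome, the longest of 131 bp. The DMR of Grm7 intron 1 (chr6:110757352-110757698) had -0.17 in control and 4.10 in MMS and held 1 CpG site in 347 bp. The stretch shown comes from the Grm4 DMR with the highest group mean of the class.
Grm4 DMR near the gene start, chr17:27519900-27519999, minus strand: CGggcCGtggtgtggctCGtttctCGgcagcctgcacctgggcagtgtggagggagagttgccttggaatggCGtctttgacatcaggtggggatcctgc

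Among the scaffolds, 10 of 16 genes held 27 DMRs, of which 17 (63.0%) were higher in MMS and 10 in control, beside 62.1% higher in MMS in all protein-coding genes. Their density was 5.41 DMRs per Mb, against 6.25. The DLG proteins, which bind the tails of NMDA receptors and of AMPA receptor complexes, had DMRs in 2 of 5 genes. Dlg1 had 1, in intron 23 (chr16:31861064-31861775), with log2 means of 5.75 in control and 4.23 in MMS. It was 54.4% soft-masked and aligned to 3 other places. Dlg2, the longest of the 42 genes at 1973 kb, had 4. Its first 3 DMRs lay upstream of the main transcript and were higher in MMS, with log2 means of -0.17, 2.20 and -0.17 in control and of 3.37, 4.77 and 3.62 in MMS. The largest difference in Dlg2 was that of the third (chr7:90965643-90966494). The last, in intron 2, was higher in control (4.42, against 2.72 in MMS). Dlg4 (30.6 kb), the most abundant scaffold of the adult postsynaptic density, and Dlg3 (50.7 kb) and Dlg5 (112 kb) held none. Of all genes, 10.4% of those under 50 kb and 42.8% of those from 50 to 200 kb held one.

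All 5 DLGAP genes held a DMR, and the density, 9.17 per Mb, was the highest of the 9 classes, against 6.25 per Mb over all protein-coding genes. The kainate (7.22) and SHANK (7.5) classes also lay above that value. All other classes lay below it, down to 1.82 per Mb for the AMPA receptors. Dlgap1 (852 kb) and Dlgap2 (752 kb) held 14 of the 17 DMRs and are of the length at which 86.5% of all genes held one. Over the family, 11 were higher in MMS and 6 in control. In Dlgap1 the directions were separated along the gene. The first 5 DMRs, between 70.3% and 86.7% of its length, were all higher in MMS. Their log2 means were 1.46, -0.17, 1.59, -0.17 and -0.17 in control, and 4.47, 4.48, 4.45, 3.46 and 3.16 in MMS. The second of them (chr17:70578917-70580046) had the largest difference in the gene. The last 3, between 96.0% and 99.6% of its length, were all higher in control. These had log2 means of 5.25, 4.50 and 6.71 in control and of 3.65, 2.12 and 5.78 in MMS.

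Of the 3 DMRs at the end of Dlgap1, the first covered exon 7 and the last covered exon 10, the final exon of the main transcript. The latter was the widest of the 70 DMRs, with 3219 bp and 97 CpG sites, and contained the last 207 coding bases, which held 13.5 CpG sites per 100 bp. The corresponding end of the coding sequence was similar in Dlgap2, Dlgap3 and Dlgap4 (74.8%, 81.5% and 77.6% identity), and no DMR lay on it in any of them. The stretches shown are the most CpG-rich coding bases of both exons.
Dlgap1 exon 7, chr17:70786908-70787007, plus strand: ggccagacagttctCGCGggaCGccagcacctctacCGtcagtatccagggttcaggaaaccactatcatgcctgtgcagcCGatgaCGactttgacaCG
Dlgap1 exon 10, chr17:70818057-70818156, plus strand: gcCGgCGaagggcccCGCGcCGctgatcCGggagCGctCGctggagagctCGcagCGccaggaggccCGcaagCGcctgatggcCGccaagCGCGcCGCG

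Dlgap2 had 6 DMRs over 752 kb. The pair nearest its start, both in intron 2 (the first at chr8:14263957-14264392), were higher in MMS, with log2 means of -0.17 and 0.50 in control and of 3.96 and 3.44 in MMS. The third, in the same intron, had 5.64 in control and 4.54 in MMS. The fourth, in intron 4, had -0.17 in control and 3.39 in MMS. The fifth covered exon 8, with log2 means of 6.15 in control and 4.46 in MMS, and the last followed it after 2110 bp in the opposite direction, with -0.17 and 3.83. The remaining genes of the family had 1 DMR each. Dlgap3 had log2 means of 5.43 in control and 3.89 in MMS over 192 bp of intron 1 (chr4:127178388-127178579). Its 225 normalised reads per kb in control were the highest of the 70 DMRs. This value was divided by a width of only 192 bp, with no correction for reads that extend past the edges. Dlgap4 had -0.17 in control and 3.83 in MMS, also in intron 1 (chr2:156651577-156651995). In Dlgap5, which is known mainly as a protein of the mitotic spindle, the DMR covered exon 12 (chr14:47398778-47399833), with log2 means of 3.84 in control and 5.20 in MMS. Coding stretches of the Dlgap2 and Dlgap5 DMRs follow, since their directions were opposite.
Dlgap2 exon 8, chr8:14778294-14778393, plus strand: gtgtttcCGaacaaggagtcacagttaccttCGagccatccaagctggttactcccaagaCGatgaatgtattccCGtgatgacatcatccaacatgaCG
Dlgap5 exon 12, chr14:47399560-47399659, minus strand: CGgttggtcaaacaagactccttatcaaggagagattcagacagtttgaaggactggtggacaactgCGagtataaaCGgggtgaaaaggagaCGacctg

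SHANK proteins join the DLGAP layer to HOMER and the actin cytoskeleton. Shank1 had the highest density of the 42 genes, 5.96 DMRs per 100 kb, with 3 DMRs in 50.3 kb. All were higher in MMS. From the start, the log2 means were 1.18 in control and 4.39 in MMS in intron 8, 1.84 and 4.99 over exons 10 and 11, and 1.82 and 5.09 in intron 15 (chr7:44337632-44338564). No control mean of Shank1 was at its lowest value. In Shank2 the only DMR, over exon 11 (chr7:144179580-144179892), had the opposite direction, with log2 means of 5.93 in control and 4.83 in MMS. Shank3 held none. HOMER proteins bind SHANK proteins and metabotropic receptors such as that of Grm5. Of their 3 genes, Homer2 had 1 DMR, in intron 1 (chr7:81660973-81661594), with log2 means of 5.24 in control and 2.18 in MMS. The difference of -3.06 was the largest toward control of the 70 DMRs. Homer1 and Homer3 held none.

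The exon DMRs of Shank1 and Shank2 also met on neighbouring coding sequence, again described after the values had been seen. The 75 coding bases under the Shank1 DMR aligned to bases 1108 to 1182 of the Shank2 coding sequence with 64.9% identity. The Shank2 DMR began at base 1175, so the shared part was short. Sequences of both are shown.
Shank1 exon DMR, chr7:44325594-44325693, plus strand: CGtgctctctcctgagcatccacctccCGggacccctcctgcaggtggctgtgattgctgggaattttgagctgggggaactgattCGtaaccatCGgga
Shank2 exon 11, chr7:144179755-144179854, plus strand: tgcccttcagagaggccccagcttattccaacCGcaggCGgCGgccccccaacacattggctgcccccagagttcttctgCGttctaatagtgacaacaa

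**Figure D3:**
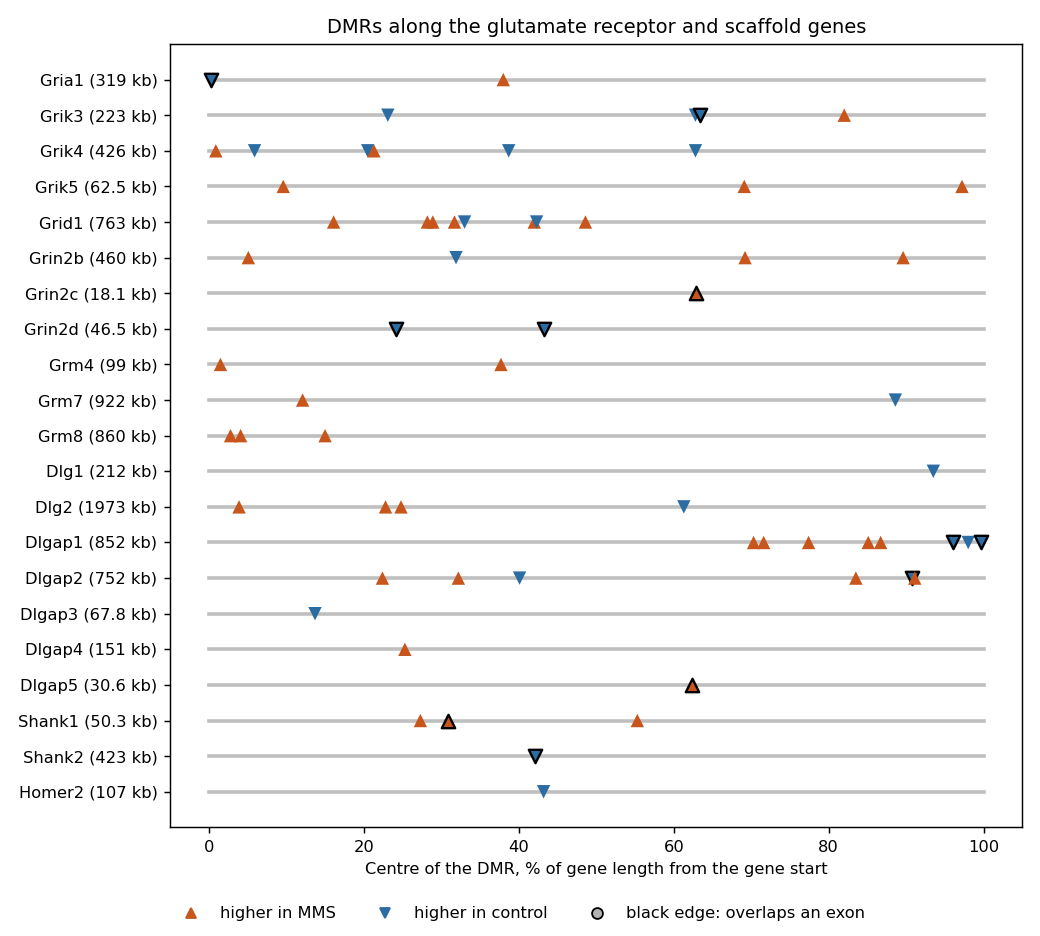
Centre of each DMR as percent of the gene length from the gene start (horizontal axis) for 21 genes with a DMR (rows, with gene length), where upward orange triangles are higher in MMS, downward blue triangles higher in control and a black edge marks overlap with an exon. Grid1 shows its 8 DMRs between 16.1% and 48.6%, and Dlgap1 shows 5 higher in MMS followed by 3 higher in control near its end.

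Among the 70 DMRs, 11 (15.7%) overlapped an exon of any transcript, against 23.1% of all DMRs in protein-coding genes. These 11 belonged to Gria1, Grik3, Grin2c, Grin2d (both DMRs), Dlgap1 (both ends of the group of 3), Dlgap2, Dlgap5, Shank1 and Shank2. Of the 11, 8 (72.7%) were higher in control, against 41.0% of all exon-overlapping DMRs in protein-coding genes. None had a group at its lowest value, against 27.1%. Of the 59 that overlapped no exon, 41 (69.5%) were higher in MMS, against 63.1%, and 25 (42.4%, control in each) had the lower group at its lowest value, against 34.5% with either group there. The exon-overlapping DMRs were also wider and richer in CpG sites, with medians of 1035 bp and 2.11 CpG sites per 100 bp, where those without an exon had medians of 511 bp and 1.18. Among all DMRs in protein-coding genes these medians were 714 bp and 1.84 with an exon and 517 bp and 1.32 without. Width and CpG density moved with the direction, and their part in it was not tested. These are descriptions of small counts with no test of the difference.

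**Figure D4:**
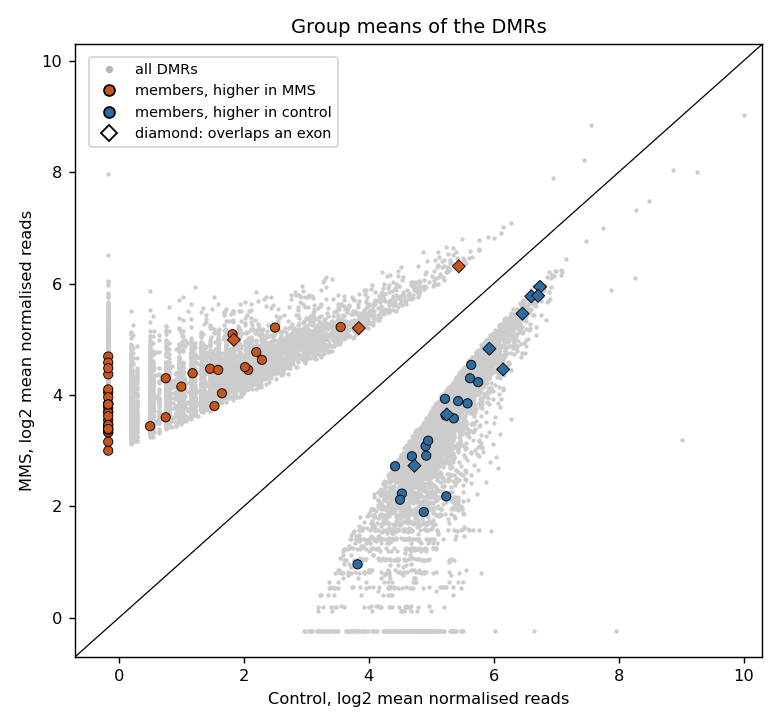
Control mean (horizontal axis) against MMS mean (vertical axis) of every DMR, both in log2 mean normalised reads, with all 12949 DMRs in grey, those of the receptor and scaffold genes in colour and diamonds for the 11 that overlap an exon. The line marks equal means, and 8 of the 11 diamonds lie on the control side of it, while 25 circles stand at the lowest control value of -0.17.

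By position, 31 DMRs (44.3%) were centred in the first of 3 equal parts of the gene, 18 (25.7%) in the middle and 21 (30.0%) in the last, against 34.8%, 31.7% and 33.5% over all protein-coding genes. Intron 1 of the main transcript held 12 (17.1%, against 20.7%). A promoter held 3 (4.29%, against 5.26%), among them those of Gria1 and Grin2d, and all 3 were higher in control. Of the 47 pairs of adjacent DMRs within a gene, 26 (55.3%) had the same direction, against 54.4% over all protein-coding genes. Where the gap was within 20 kb this was 11 of 15 (73.3%, against 53.9%). The 4 close pairs of opposite direction lay in Grik4, Grid1 (2 pairs) and Dlgap2. No DMR was shared with another protein-coding gene, and 65 of the 70 had no further alignment of at least 100 bp at 95% identity on the chromosomes.

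DMRs just beyond the limits of the rule were few. Upstream, the nearest outside lay 8441 bp from Dlg5 (log2 mean 5.44 in control, 3.25 in MMS) and 9214 bp from Dlg4 (5.81 and 4.37). Downstream, the nearest lay 887 bp past the end of Grik1, with log2 means of 5.07 in control and 3.76 in MMS.

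Partners of these receptors were counted over a list of 45 genes grouped by function, of which 18 (40.0%) held a DMR, against 19.3% of all protein-coding genes with no regard to length. They held 49 DMRs, 31 higher in MMS and 18 in control, beside 62.1% higher in MMS over all DMRs in protein-coding genes. Auxiliary subunits of AMPA receptors, which govern their trafficking and gating, had DMRs in 5 of 13 genes. Among them Cacng2, which encodes stargazin, had 6 (3 in each direction), and Gsg1l had 5 (3 higher in MMS, 2 higher in control). Of the trafficking proteins, Grip1, which binds AMPA receptor tails, had 6 DMRs, all higher in MMS, and the one with the largest difference had log2 means of -0.17 in control and 4.49 in MMS. Postsynaptic signalling proteins had DMRs in 8 of 12 genes, led by Kalrn, a signalling protein of dendritic spines, with 9 (6 higher in MMS, 3 higher in control). Grip1 (633 kb) and Kalrn (604 kb) are of the length class over 500 kb, in which 86.5% of all genes held a DMR. Of the 4 cerebellin genes, whose products bind delta receptors, none held a DMR. They are only 4.2 to 7.23 kb long, and 10.4% of all genes under 50 kb held one. Transport and metabolism of glutamate had 2 of 9 genes with a DMR. These were Slc1a2, the main glial glutamate transporter, with log2 means of 1.93 in control and 5.05 in MMS, and Slc17a7, a vesicular glutamate transporter, with 1.31 and 5.13.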

How the data were processed

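Genomic DNA of the hypothalamus was pooled into 3 control and 3 MMS samples for meDIP-seq, with 2 inputs (1 per group) and 1 IgG control not compared here as groups of their own. The methods state that data were normalised to the pooled input of each group and that IgG signal was subtracted, so both may enter the group means used here. Alignment by the authors was to mm10 (Torrent Suite). They used MACS2 2.1 to find broad peaks over inputs, with its human genome size setting per the methods. The authors compared groups with DiffBind and DESeq2. HOMER 4.8 is also named in the submitters' processing notes. The deposited log2 values are the authors' means of normalised reads over all pools, over control and over MMS. The columns headed untreated and treated were taken as the control and MMS groups. Columns with the authors' fold change, p-value and FDR for this comparison were not used. The labels name 1 antibody for all libraries, inputs and IgG included. Read depth per library cannot be read from these means. No value column belonged to an unmapped sample.

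Genes of the symbol rule were named, with both group means of every DMR, except that values of 2 genes enter the counts and are not reported here by name. The members and lists were chosen with earlier results of these data known. Direction was taken from the group means. Genes and exons came from GENCODE vM21 (gene body plus 1000 bp upstream), with 1 main transcript per gene (best APPRIS rank, then longest coding sequence), and a promoter was the window of 1000 bp before to 100 bp after a transcript start. CpG sites, soft-masked repeats and sequences came from the RefSeq GRCm38 reference, within whose chromosome lengths all DMRs lay. Printed windows are the 100 bases of a DMR with the most CpG sites outside UTRs, with at least 50 coding bases for DMRs over coding exons. Alignments used BLAST 2.17.0 (minimum 100 bp, 95% identity, chromosomes only). Coding sequences of paralogues were aligned locally. The assignment of DMRs to genes was tested on simulated data. No test between groups was made, as the columns used hold no values per pool. Alternatives were other gene limits, assignment by the centre, a smallest difference or width, joined neighbours, autosomes alone, a shorter gene list and other limits for the lowest value. Python 3.11.15, pandas 2.3.3, numpy 2.4.6, scipy 1.17.1, pysam 0.24.0 and matplotlib 3.10.9 were used.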

Additional observations from a re-analysis of the deposited data

How the results depend on the processing

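Over 9 alternatives the number of glutamate receptor and scaffold genes with a DMR ranged from 17 to 23 and the number of their DMRs from 48 to 70, all within 1.5 times the reported counts. The share of DMRs higher in MMS was reported as 62.9%. It was 85.4% among DMRs with a log2 difference of at least 2. This cut kept every DMR with control at its lowest value, as the smallest difference among them was 3.17. It removed most DMRs higher in control, whose median difference was -1.69, so a rise was built in. The same cut was not applied to all DMRs. The share was 42.2% once DMRs with a group at its lowest value were left out. That step removed only DMRs higher in MMS here, and gave 45.9% over all DMRs in protein-coding genes. The other 7 alternatives left the share within its interval. The share with the lower group at its lowest value was between 35.7% and 40.0% under both of its alternatives. No paired analysis was possible because the values used here are group means, and leaving out single pools could not be run for the same reason. Depth per library limits every value by an amount that the group means do not show.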
